A study of Danio rerio with 12 samples.

Results

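Glutamate receptor genes were followed in whole zebrafish larvae kept in bepridil, an antianginal drug that blocks calcium channels. The family was chosen with earlier results of these data known, and its members were set by a name rule. The rule took each name in the count table beginning as an AMPA (gria), kainate (grik), delta (grid), NMDA (grin) or metabotropic (grm) receptor subunit. The delta receptor interacting protein genes were left out. This gave 38 of the 25099 genes in the table, 8 of them AMPA, 5 kainate, 3 delta, 10 NMDA and 12 metabotropic receptor genes. All 38 passed the filter on low counts, so that all of them were tested among 21581 genes. The larvae were of the AB strain, with no transgene or mutation named in the labels, and were taken at 120 hours post fertilization. The 4 groups had received 0, 250, 750 or 1295 ng/mL bepridil, and the 0 ng/mL group was the control. Each group had 3 samples of 15 pooled whole larvae, which made 12 messenger RNA libraries. The labels call the tissue embryo, and the samples held all tissues of the larva.

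Glutamate carries most fast excitation in the vertebrate brain, spinal cord and retina. AMPA, kainate and NMDA receptors are ion channels that glutamate opens. The NMDA type also needs glycine or D-serine and lets calcium into the cell. Delta receptors share the fold of these channels but act as synaptic organizers that bind cerebellins, and metabotropic receptors act through G proteins. In zebrafish many of these genes exist as an a and a b copy. Reads that match both copies can be hard to assign, so the value of a single copy is less certain. How such reads were counted could not be checked here, and the sum of a family can be affected too.

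Total counts per library ran from 15571556 to 18284169, of which 6440 to 33027 fell on the 38 receptor genes. Single receptor genes had between 9 counts (grin3bb) and 10072 counts (grin1b) in a library, so counting error is small for the abundant genes and not for the rare ones. Normalization factors were 0.8308 to 0.9055 in the libraries of the highest dose and 1.011 to 1.075 in the rest. Levels are in CPM, a gene's read count relative to the TMM-adjusted total of its library. Means are given with the SD over the 3 libraries of a group, and fitted log2 changes with a standard error (SE). A gene was called changed at an adjusted p under 0.05. CPM were not divided by transcript length, so the level of 1 gene is not compared with that of another. Whether the 3 samples of a dose were separate clutches is not stated in the labels, so each p-value is relative to a spread between samples that may be technical. In whole larvae, fewer cells that express a gene and less RNA of it per cell cannot be told apart. Transcript lengths could not be checked, and the part of transcript length or RNA quality in the receptor changes was not tested. The 3 doses were all set against the same 3 control libraries.

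The main result was a broad decrease at the highest dose. Summed over the 38 genes, expression was 1277, 1238 and 1516 CPM in the control libraries, 1622 to 1849 CPM at 250 ng/mL, 1688 to 1726 CPM at 750 ng/mL, and 582, 424 and 575 CPM at 1295 ng/mL. All 1295 ng/mL libraries lay below all others, and both lower doses lay above the controls. This sum is dominated by the genes with most counts. The median log2 fold changes over the 38 genes were 0.14 at 250 ng/mL and 0.06 at 750 ng/mL. At 1295 ng/mL the mean sum was 39.2% of the control mean and 30.9% of that at 750 ng/mL. By edgeR's quasi-likelihood test, adjusted over all tested genes, 35 of the 38 genes were lower at 1295 ng/mL than in controls, or 92.1%, and 0 were higher. Among all tested genes 22.2% were called lower and 18.8% higher. At least 2-fold decreases were called for 22 of the 38 genes, against 7.5% of all tested genes. The median log2 fold change of the receptor genes was -1.11, beside -0.02 over all tested genes, and all 38 had their lowest group mean at 1295 ng/mL, as did 43.5% of tested genes. In 36 of the 38 genes every 1295 ng/mL library lay below every control, against 28.5% of all tested genes. Leaving out 1 library at a time gave 29 to 36 decreased genes and medians from -1.21 to -1.04.

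**Figure D1:**
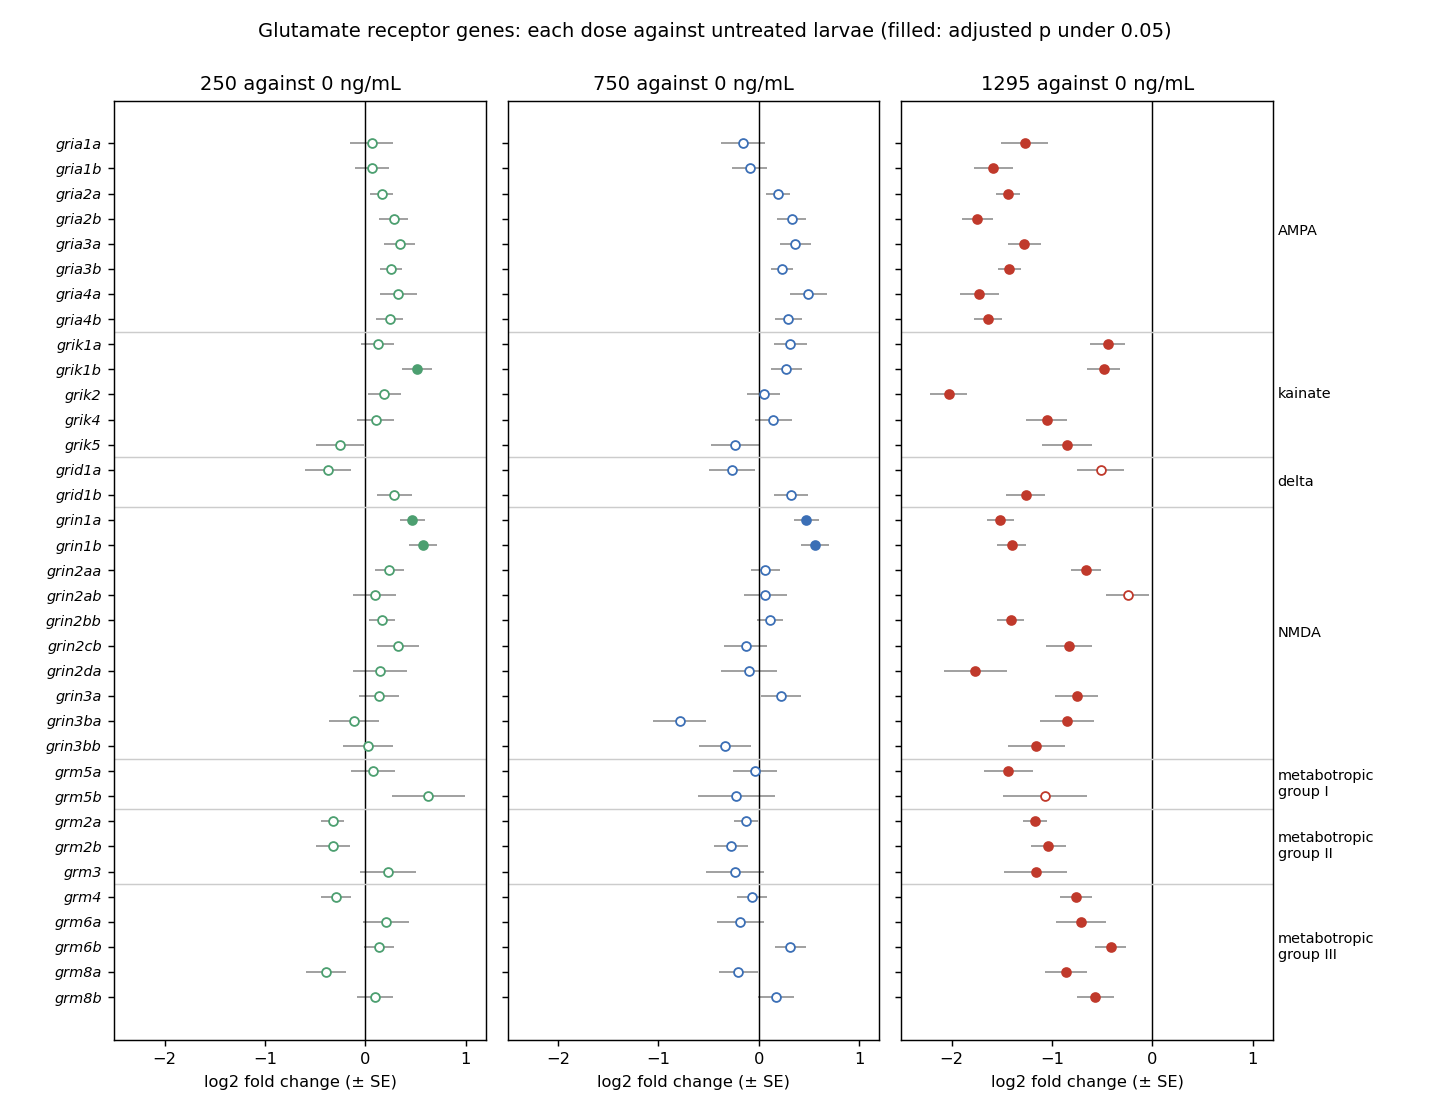
Log2 fold change (x axis, with SE) of 35 of the 38 glutamate receptor genes (rows, grouped by family) at 250, 750 and 1295 ng/mL against 0 ng/mL, 3 libraries per dose, filled where the adjusted p was under 0.05. In the right panel all 35 points lie below 0 and 32 are filled, while 3 are filled at 250 ng/mL and 2 at 750 ng/mL.

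NMDA receptors are assembled around the obligatory, glycine-binding subunit that grin1a and grin1b encode. Expression of grin1b was 312, 292 and 421 CPM in the control libraries, 474, 489 and 564 CPM at 250 ng/mL, 511, 484 and 518 CPM at 750 ng/mL, and 147, 104 and 137 CPM at 1295 ng/mL. The highest dose lay below the controls and both lower doses above them, with no overlap. At 1295 ng/mL grin1b fell by 1.402 log2 units (adjusted p = 1.29e-05, SE 0.15), a 2.64-fold decrease. Its copy grin1a stood at 175, 193 and 238 CPM in controls, 260.8, 274 and 306 CPM at 250 ng/mL, 285, 275 and 284 CPM at 750 ng/mL, and 78.1, 56.9 and 77.6 CPM at 1295 ng/mL. It followed the same order of doses and fell by 1.51 at 1295 ng/mL (adjusted p = 5.34e-06, SE 0.13).

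The grin2 genes encode the glutamate-binding NMDA subunits, which set the speed and calcium signal of the receptor. Of the 5 grin2 genes, 4 fell at 1295 ng/mL. Expression of grin2da was 7.54, 5.52 and 7.49 CPM in controls, 5.99, 7.05 and 9.74 CPM at 250 ng/mL, 5.93, 9.10 and 4.2 CPM at 750 ng/mL, and 2.72, 1.19 and 2.10 CPM at 1295 ng/mL. The lower doses overlapped with the controls, and the highest dose lay below every other library. It fell by 1.76 (adjusted p = 0.000584, SE 0.32), grin2bb by 1.41 (SE 0.14), grin2cb by 0.83 (SE 0.23) and grin2aa by 0.66 (SE 0.15), the latter 3 with adjusted p values from 9.15e-06 to 0.00937. The exception was grin2ab, with 16.1, 7.58 and 11.3 CPM in controls and 10.5, 9.22 and 9.83 CPM at 1295 ng/mL. Its groups overlapped, its log2 fold change was -0.25 (adjusted p = 0.383, SE 0.22), and the difference from its copy grin2aa was not tested. Without control replicate 1 its value was 0.05. The grin3 genes encode subunits that bind glycine in place of glutamate. Of them grin3bb fell by 1.16 (SE 0.29), grin3ba by 0.85 (SE 0.27) and grin3a by 0.75 (SE 0.21), with adjusted p values from 0.00509 to 0.0192. They had means of 0.759 to 2.31 CPM at that dose, where counting error weighs more. The grin3a call was lost without 1295 ng/mL replicate 2 (-0.63), and the grin3ba call without control replicate 3 (-0.75) or 1295 ng/mL replicate 3 (-0.78).

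The grin1 genes made up 85.3% to 89.1% of all NMDA subunit counts in the control libraries, 89.4% to 91.4% at the lower doses, and 81.2% to 83.6% at 1295 ng/mL. The 1295 ng/mL libraries lay below all controls and the lower doses above them. The family's sum was 620.7 ± 103 CPM in controls, 875 ± 86.2 CPM at 250 ng/mL, 864 ± 18.4 CPM at 750 ng/mL and 242 ± 38.0 CPM at 1295 ng/mL (SD, n = 3 libraries each).

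AMPA receptors mediate the fast part of excitatory transmission, and all 8 of their subunit genes fell at 1295 ng/mL, by 1.27 (gria1a and gria3a) to 1.74 (gria2b). The gene gria2b encodes a GluA2 subunit, which in mammals limits the entry of calcium through the receptor. It stood at 83.1, 97.9 and 98.1 CPM in controls, 116, 114 and 111 CPM at 250 ng/mL, 124, 116 and 110 CPM at 750 ng/mL, and 32.8, 19.0 and 31.5 CPM at 1295 ng/mL. The decrease at the highest dose was 3.35-fold (log2 fold change -1.74, adjusted p = 5.34e-06, SE 0.15). Expression of gria4a went from 30.7, 36.6 and 38.6 CPM in controls to 11.5, 6.91 and 13.7 CPM at 1295 ng/mL (log2 fold change -1.72, adjusted p = 2.61e-05, SE 0.20). It was 41.4, 43.0 and 48.9 CPM at 250 ng/mL and 43.7, 44.0 and 61.7 CPM at 750 ng/mL, so that its highest value was that of 750 ng/mL replicate 3.

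The other copy, gria4b, stood at 83.9, 90.1 and 95.0 CPM in controls, 105, 104 and 110 CPM at 250 ng/mL, 108, 109 and 113 CPM at 750 ng/mL, and 33.1, 20.4 and 33.0 CPM at 1295 ng/mL. Every library at the lower doses lay above the controls. Neither increase passed edgeR's quasi-likelihood test (adjusted p = 0.26 at 250 ng/mL and 0.211 at 750 ng/mL). The fall at 1295 ng/mL was 1.63 in log2 units (adjusted p = 4.57e-06, SE 0.14). The AMPA gene with the most counts, gria3a, was at 113, 111 and 156 CPM in controls, 149, 156 and 179 CPM at 250 ng/mL, 157, 156 and 179 CPM at 750 ng/mL, and 58.3, 38.9 and 60.2 CPM at 1295 ng/mL. Its control replicate 3 lay within the range of the lower doses, and it fell by 1.27 at 1295 ng/mL (adjusted p = 4.77e-05, SE 0.16). The 2 gria2 genes held 39.3% to 43.2% of AMPA counts in controls and 38.2% to 40.1% at 1295 ng/mL. These ranges overlapped. The remaining AMPA genes gria1b, gria2a and gria3b fell by 1.58, 1.43 and 1.43 (SE 0.19, 0.12 and 0.12). AMPA genes together went from 537 ± 49.1 to 191 ± 44.3 CPM (SD, n = 3 libraries each).

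**Figure D2:**
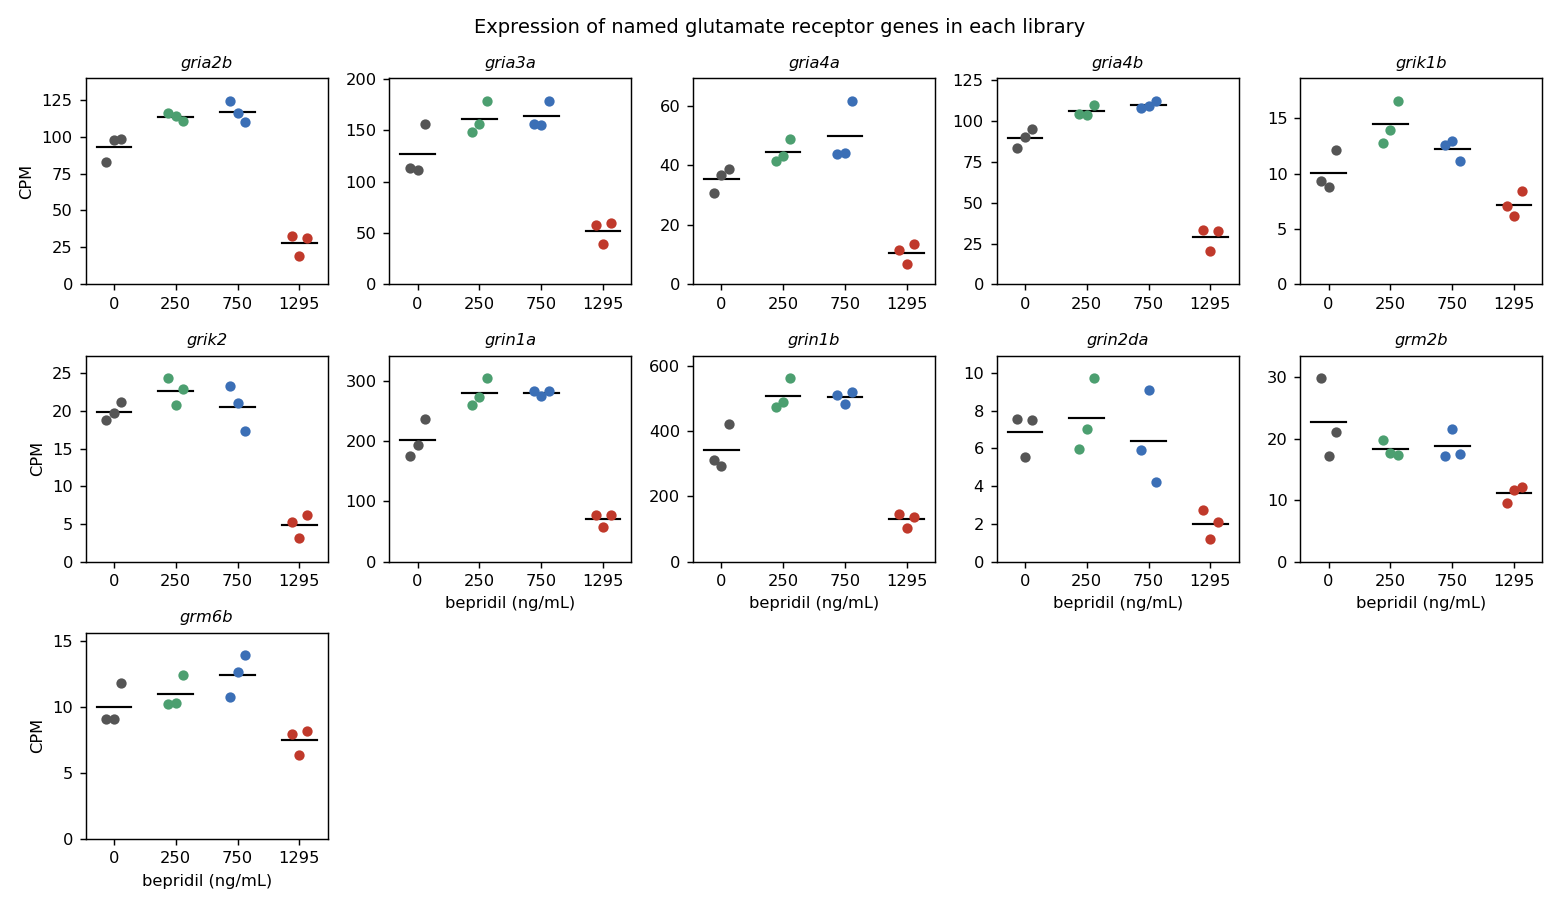
Expression in CPM (y axis, from 0) of 11 glutamate receptor genes in each of the 12 libraries (points) by bepridil dose (x axis, ng/mL), with the group mean as a bar. The 1295 ng/mL points lie below all points of the controls in every panel, and for grin1a and grin1b the points at 250 and 750 ng/mL lie above the controls.

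Kainate receptors tune excitation on both sides of the synapse, and all 5 of their genes were called lower at 1295 ng/mL. The largest decrease of all 38 genes was that of grik2, which encodes the channel-forming GluK2 subunit. It stood at 18.7, 19.8 and 21.1 CPM in controls, 24.4, 20.8 and 22.9 CPM at 250 ng/mL, 23.3, 21.0 and 17.4 CPM at 750 ng/mL, and 5.26, 3.09 and 6.18 CPM at 1295 ng/mL. The lower doses overlapped with the controls, and the highest dose was 4.08-fold lower (log2 fold change -2.03, adjusted p = 6.46e-06, SE 0.19). The GluK1 genes had smaller fitted changes, a difference that was not tested. Expression of grik1b was 9.37, 8.80 and 12.2 CPM in controls, 12.8, 13.97 and 16.6 CPM at 250 ng/mL, 12.6, 12.9 and 11.1 CPM at 750 ng/mL, and 7.06, 6.19 and 8.40 CPM at 1295 ng/mL. It fell by 0.49 at the highest dose (adjusted p = 0.0253, SE 0.16). This did not pass without control replicate 3 (-0.33), 1295 ng/mL replicate 1 (-0.47) or 1295 ng/mL replicate 2 (-0.38). Its copy grik1a was called lower at -0.45 (adjusted p = 0.049, SE 0.17), and this call depended on each of 8 libraries. The partner subunit gene grik4, whose product needs another kainate subunit to form a channel, fell by 1.05 (adjusted p = 0.00103, SE 0.20), and grik5 fell by 0.85 (adjusted p = 0.0132, SE 0.25). The grik5 call was lost without control replicate 1 (-0.54) or 1295 ng/mL replicate 2 (-0.68).

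With 1 library left out at a time, the log2 fold change of grik1a was -0.42 (control replicate 1), -0.37 (control replicate 3), -0.45 (250 ng/mL replicate 1, 750 ng/mL replicate 1 or 2), -0.37, -0.51 and -0.45 (1295 ng/mL replicates 1, 2 and 3), and its adjusted p lay between 0.0536 and 0.163. The direction was the same in all of them.

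Delta receptors are not opened by glutamate under ordinary conditions. The grid1 copies gave different calls: grid1b fell by 1.26 at 1295 ng/mL (adjusted p = 0.000199, SE 0.19), while grid1a had 5.83, 3.58 and 4.17 CPM in controls and 3.84, 2.30 and 3.34 CPM at 1295 ng/mL (log2 fold change -0.52, adjusted p = 0.09, SE 0.23). The difference between these copies was not tested. Without control replicate 2 grid1a passed as lower (-0.66, adjusted p = 0.0484).

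Metabotropic receptors of group I, to which the grm5 genes belong, couple to phospholipase C and sit mostly on the postsynaptic side. The gene grm5a fell by 1.43 at 1295 ng/mL (adjusted p = 0.000426, SE 0.25). For grm5b, the copy of grm5a, the libraries had 3.54, 2.67 and 2.42 CPM in controls and 1.24, 1.19 and 1.67 CPM at 1295 ng/mL. These did not overlap, but the value of -1.07 (SE 0.42) missed the threshold (adjusted p = 0.053). It passed, at -1.07 each time, without 250 ng/mL replicate 2 or 3 or 750 ng/mL replicate 1 or 3. These libraries were outside the comparison and entered only the filter, the scaling and the shared estimate of the spread. The difference between the grm5 copies was not tested.

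Groups II (grm2 and grm3) and III (grm4, grm6 and grm8) are classed as lowering cyclic AMP. Apart from grm6, they act in large part as presynaptic brakes on release. All 3 group II genes fell at 1295 ng/mL, grm2a by 1.17 (SE 0.12), grm3 by 1.16 (SE 0.31) and grm2b by 1.04 (SE 0.18). Expression of grm2b was 29.9, 17.2 and 21.0 CPM in controls, 19.7, 17.7 and 17.3 CPM at 250 ng/mL, 17.2, 21.5 and 17.5 CPM at 750 ng/mL, and 9.47, 11.7 and 12.1 CPM at 1295 ng/mL. Control replicate 1 was its highest library, and its decrease at 1295 ng/mL had an adjusted p of 0.000396. The 5 group III genes were all called lower, grm8a by 0.86 (SE 0.21), grm4 by 0.76 (SE 0.16), grm6a by 0.71 (SE 0.25), grm8b by 0.57 (SE 0.19) and grm6b by 0.41 (SE 0.16). The grm6a call was lost without control replicate 1 (-0.66), control replicate 3 (-0.56), 1295 ng/mL replicate 1 (-0.57) or 1295 ng/mL replicate 3 (-0.77). The grm8b call was lost without control replicate 1 (-0.51), control replicate 3 (-0.54), 1295 ng/mL replicate 1 (-0.46) or 1295 ng/mL replicate 2 (-0.59). The gene grm6b encodes a receptor of the kind through which retinal ON bipolar cells sense glutamate from photoreceptors. It stood at 9.08, 9.10 and 11.8 CPM in controls, 10.2, 10.3 and 12.4 CPM at 250 ng/mL, 10.8, 12.6 and 13.9 CPM at 750 ng/mL, and 7.92, 6.39 and 8.16 CPM at 1295 ng/mL. Its log2 fold change at the highest dose was -0.41 (adjusted p = 0.045, SE 0.16). It did not pass without control replicate 3 (-0.28), 250 ng/mL replicate 1 or 2 (-0.41), 750 ng/mL replicate 2 (-0.41) or 1295 ng/mL replicate 1, 2 or 3 (-0.46, -0.30 and -0.48).

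Summed by family, the 1295 ng/mL libraries lay below all controls in each of the 7 families. The mean at that dose was 35.5% of the control mean for AMPA, 38.9% for NMDA, 43.0% for group I, 46.8% for group II, 48.8% for kainate, 52.0% for delta and 63.9% for group III genes. These are levels of sums, dominated by the genes with most counts, and the differences between families were not tested. Replicate 2 of 1295 ng/mL held the lowest value of its group in 28 of the 38 genes. Without it, 1295 against 0 ng/mL still gave 29 decreased genes and a median log2 fold change of -1.08.

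**Figure D3:**
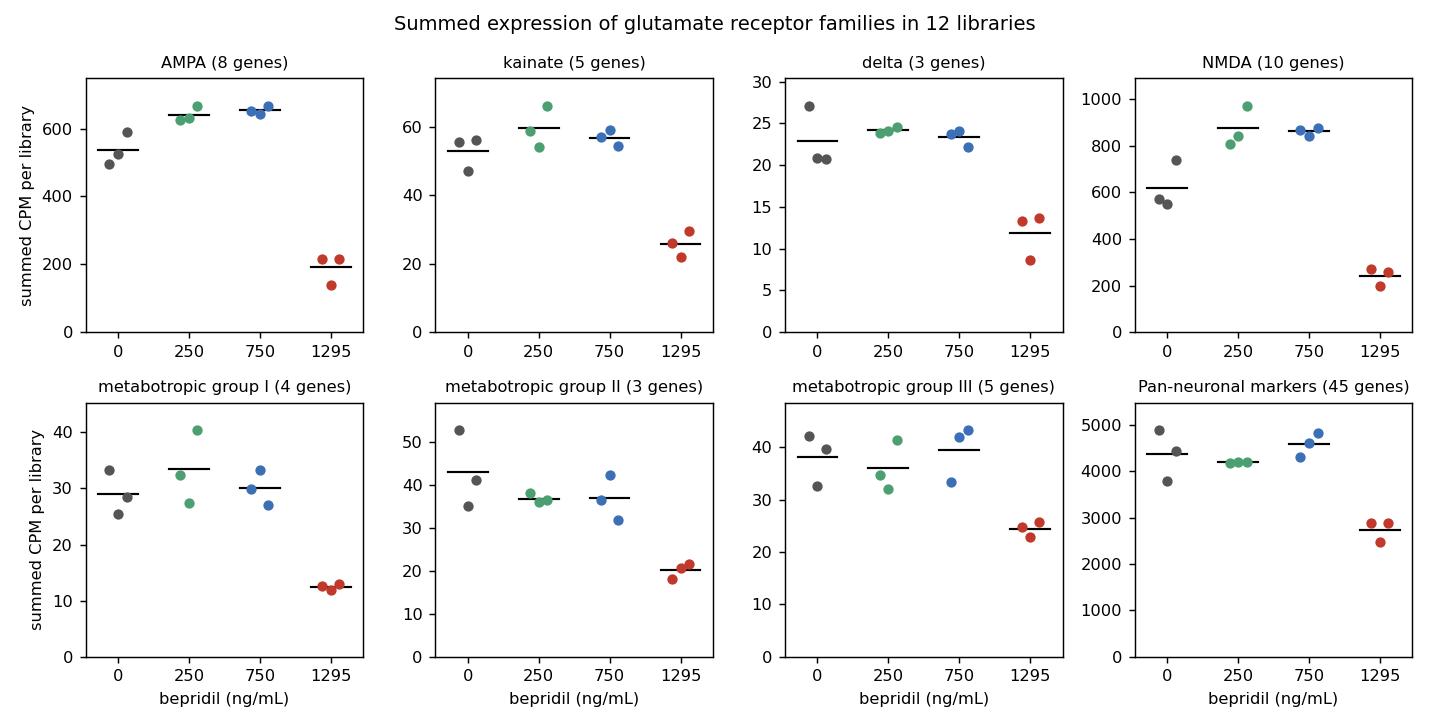
Summed CPM (y axis, from 0) of each glutamate receptor family and of 45 pan-neuronal marker genes in the 12 libraries (points) by bepridil dose (x axis, ng/mL), with group means as bars. In all 8 panels the 1295 ng/mL libraries lie below the controls, and in the AMPA and NMDA panels the libraries at 250 and 750 ng/mL lie above the controls.

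At the lower doses few receptor genes passed. At 250 ng/mL 3 of the 38 genes rose and 0 fell, or 7.89% called, beside 6.03% of all tested genes called higher and 4.48% called lower, so the share was near the background. They were grin1b (log2 fold change 0.57, adjusted p = 0.0192, SE 0.14), grin1a (0.47, adjusted p = 0.0307, SE 0.13) and grik1b (0.52, adjusted p = 0.0426, SE 0.15). At 750 ng/mL 2 of 38 rose and 0 fell, again grin1b (0.56, adjusted p = 0.0286, SE 0.14) and grin1a (0.48, adjusted p = 0.0396, SE 0.13), beside 4.2% of tested genes called higher and 2.14% called lower. Log2 fold changes lay above 0 for 31 of 38 receptor genes at 250 ng/mL, or 81.6%, against 56% of tested genes, and for 20 of 38 at 750 ng/mL, or 52.6%, against 52.8%. The medians were 0.14 and 0.06, beside 0.04 and 0.02 over all tested genes. In 9 genes at each dose all treated libraries lay above all controls, or 23.7%, against 18.7% of tested genes at 250 ng/mL and 14.9% at 750 ng/mL. These included gria2a, gria2b, gria4a, gria4b and grin2bb at both doses, none of which passed the test. In 1 gene at each dose all treated libraries lay below all controls, grm2a at 250 ng/mL and grin3bb at 750 ng/mL, against 13.9% and 11.4% of tested genes.

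Each increase at the lower doses lost its call when certain single libraries were left out. At 250 ng/mL the grin1b call was lost without control replicate 1 (0.51), control replicate 2 (0.47) or 250 ng/mL replicate 3 (0.49). The grin1a call was lost without the same 3 libraries (0.38, 0.44 and 0.40) or 250 ng/mL replicate 2 (0.49). The grik1b call was lost without either of these controls (0.46 and 0.42), 250 ng/mL replicate 2 or 3 (0.54 and 0.40), 750 ng/mL replicate 1 or 2 (0.52), or 1295 ng/mL replicate 1 or 2 (0.51 and 0.46). At 750 ng/mL the grin1b call was lost without control replicate 1 or 2 (0.50 and 0.46) or 750 ng/mL replicate 1, 2 or 3 (0.55, 0.59 and 0.50). The grin1a call was lost without each of these (0.38, 0.44, 0.47, 0.49 and 0.43) and without 250 ng/mL replicate 1 or 2 (0.47). The direction did not change in any of them. Replicate 3 of 250 ng/mL held the highest value of its group in 30 of the 38 genes. Without 750 ng/mL replicate 3, grm2a passed as lower at 250 ng/mL (-0.38, adjusted p = 0.0412), and without 750 ng/mL replicate 2, grin3ba passed as lower at 750 ng/mL (-1.21, adjusted p = 0.0137).

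Set directly against each other, 750 and 250 ng/mL gave 0 called receptor genes and 0 of all 21581 tested genes (0%) by edgeR's quasi-likelihood test. At an unadjusted p under 0.05 there were 3 receptor genes (grin2cb, grin3ba and grm5b) among 1681 of all genes, and DESeq2 and limma-voom also called 0 receptor genes. Between 750 and 1295 ng/mL the direct comparison called 32 of 38 receptor genes lower and 0 higher, or 84.2%, against 28.7% of tested genes called lower and 23.4% called higher. The median was -0.98, beside -0.05 over all tested genes. The largest decreases, as log2 fold changes, were those of gria4a (-2.22, adjusted p = 1.07e-06, SE 0.20), grik2 (-2.08, adjusted p = 1.02e-06, SE 0.19), gria2b (-2.07, adjusted p = 2.83e-07, SE 0.15), grin1a (-1.99, adjusted p = 1.80e-07, SE 0.13) and grin1b (-1.96, adjusted p = 3.06e-07, SE 0.15). The genes that did not pass here were grid1a, grik5, grin2ab, grin3ba, grm5b and grm6a, with log2 fold changes from -0.85 to -0.06. No control library entered these differences themselves. Leaving out 1 library changed some of these calls. Lower calls were lost for grin2cb without 750 ng/mL replicate 1 (-0.61) or 1295 ng/mL replicate 2 (-0.41), and for grm8a without 750 ng/mL replicate 3 (-0.46) or 1295 ng/mL replicate 2 (-0.52). For grm3 they were lost without 750 ng/mL replicate 1 or 2 (-0.88 and -0.53) or 1295 ng/mL replicate 1 or 2 (-0.92 and -0.84), and for grin3bb without the same 4 libraries (-0.74, -0.77, -0.64 and -0.87). Calls were gained for grm5b without 750 ng/mL replicate 3 (-1.20), and for grik5 without control replicate 1 or 2 (-0.61), 750 ng/mL replicate 1 (-0.80) or 1295 ng/mL replicate 3 (-0.74).

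Genes that work with the receptors were counted from lists chosen by function. Auxiliary subunits carry AMPA and kainate receptors to the membrane and shape their currents. Of 29 tested auxiliary genes 17 fell at 1295 ng/mL and 0 rose, with a median of -0.84, among them the cornichon gene cnih2 (-1.23, adjusted p = 1.26e-05, SE 0.13) and neto1l, of the kainate receptor partner family (-1.13, adjusted p = 8.62e-05, SE 0.15). The remaining gene with one of the 3 smallest p values was syndig1l (-1.18, SE 0.14). At 250 ng/mL 2 of the 29 rose and 0 fell, and likewise at 750 ng/mL, beside 6.03% and 4.2% of all tested genes called higher at these doses. Of 37 postsynaptic scaffold genes, which anchor receptors in the postsynaptic density, 29 fell at 1295 ng/mL and 1 rose (median -0.94). The gene that rose was homer2 (0.88), named after its value was seen. The Ras regulator gene syngap1b fell by 1.79 (adjusted p = 3.95e-06, SE 0.14), from 51.4 ± 3.60 to 14.9 ± 3.42 CPM. The densin gene lrrc7 fell by 1.43 (SE 0.14) and dlg2, of the PSD-95 family, by 1.24 (SE 0.13). Of 10 cerebellin and neurexin genes, which link delta receptors and other postsynaptic partners to the presynaptic side, 9 fell and 0 rose (median -1.08). Among them nrxn1b was down by 1.37 (adjusted p = 1.90e-05, SE 0.15).

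On the supply side, vesicular glutamate transporters fill synaptic vesicles with glutamate. Of their 5 genes 4 fell at 1295 ng/mL, with a median of -0.91. The gene slc17a6a went from 25.1 ± 4.19 to 9.22 ± 1.06 CPM (log2 fold change -1.45, adjusted p = 0.000113, SE 0.21). Its copy slc17a6b fell by 1.27 (adjusted p = 0.000104, SE 0.18). Uptake transporters clear glutamate from the synapse. Of 10 tested genes 7 fell and 1 rose, with a median of -1.08. Those that fell included slc1a6 (-1.55, SE 0.19) and slc1a2a (-1.53, SE 0.24), and the gene that rose was slc1a3a (0.30), a transporter of glia in mammals, named after its value was seen. The summed level of the uptake genes was 283 to 618 CPM in controls and 295 to 330 CPM at 1295 ng/mL, and these ranges overlapped. Enzymes and transporters of glutamate and D-serine metabolism did not move together: 4 of 19 rose and 4 fell, with a median of 0.08. The glutaminase gene glsa fell by 1.35 (adjusted p = 5.58e-06, SE 0.12), while the glutamine synthetase gene glulb rose by 0.63 (adjusted p = 7.92e-05, SE 0.08) and the glutamate dehydrogenase gene glud1a by 0.51 (adjusted p = 0.000776, SE 0.09). Many of these metabolic genes are also expressed in liver, gut and muscle. At 250 ng/mL 7 of the 19 rose and 1 fell, beside 6.03% of all tested genes called higher and 4.48% called lower. At 750 ng/mL 3 rose and 1 fell, beside 4.2% and 2.14%. The summed level of this list lay above all controls at 250, 750 and 1295 ng/mL, at 115%, 117% and 114% of the control mean. The counts of these lists at 1295 ng/mL stand beside 22.2% of all tested genes called lower and 18.8% called higher at that dose.

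Markers of cells that could carry receptor RNA were counted at the same dose, where 22.2% of all tested genes were called lower and 18.8% higher. Of 45 tested pan-neuronal genes 36 fell at 1295 ng/mL and 0 rose, with a median of -0.75, and their summed level was 3791 to 4890 CPM in controls and 2468 to 2880 CPM at 1295 ng/mL. At 250 ng/mL 0 of the 45 were called by edgeR's quasi-likelihood test. An unadjusted p under 0.05 was reached by 7 of them, beside 5673 of all 21581 tested genes. At 750 ng/mL 3 rose and 0 fell. Of 46 listed pan-neuronal names 45 were in the table and tested. Receptor counts came to 26.1% to 34.2% of the pan-neuronal counts in control libraries, 38.8% to 43.9% at 250 ng/mL, 35.7% to 39.4% at 750 ng/mL and 17.2% to 20.2% at 1295 ng/mL. No group overlapped with the controls in this ratio. For group III metabotropic genes alone the ratio was 0.861% to 0.896% in controls and 0.86% to 0.923% at 1295 ng/mL, and these ranges overlapped. Those of delta genes overlapped too, with 0.469% to 0.555% in controls and 0.352% to 0.476% at 1295 ng/mL. AMPA genes at 750 ng/mL (13.8% to 15.1%) overlapped with their controls (10.1% to 13.9%). So did kainate and delta genes at 750 ng/mL, and group I and group III genes at both lower doses. In this ratio group II genes lay below their controls (0.928% to 1.08%) at 250 ng/mL (0.859% to 0.909%) and narrowly at 750 ng/mL (0.66% to 0.92%). Their summed CPM overlapped with the controls at both doses, and 0 of the 3 group II genes were called at either. NMDA genes lay above their controls (11.7% to 16.7%) at 250 ng/mL (19.4% to 23.1%) and at 750 ng/mL (18.2% to 20.1%). Photoreceptor genes had 21 of 26 lower and 0 higher (median -1.03), with summed levels of 3504 to 6138 CPM in controls and 1655 to 2787 CPM at 1295 ng/mL. Cerebellar genes had 14 of 21 lower and 1 higher (median -0.49), and glia genes 14 of 25 lower and 2 higher (median -0.46). The lists are not fully separate: olig2 is named in both of these, and the glia list also names the uptake transporter gene slc1a3a. ON bipolar genes had 4 of 15 lower and 0 higher (median -0.31), a share near that of all tested genes, and their summed level overlapped with the controls. At 250 and 750 ng/mL, beside 6.03% and 4.2% of all tested genes called higher, 4 and 2 of 26 photoreceptor genes rose and 0 fell, 3 and 4 of 21 cerebellar genes rose and 0 fell, and 2 and 3 of 37 scaffold genes rose and 0 fell. The summed levels of these 3 lists lay above all controls at both doses, at 144% and 147% of the control mean for photoreceptor, 115% and 125% for cerebellar and 113% and 112% for scaffold genes. Of 25 glia genes 5 and 4 rose and 1 fell at each dose, and of 15 ON bipolar genes 1 and 2 rose and 0 fell. Glia and ON bipolar sums overlapped with the controls at both doses. The part of these cell types in the receptor values was not tested.

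**Figure D4:**
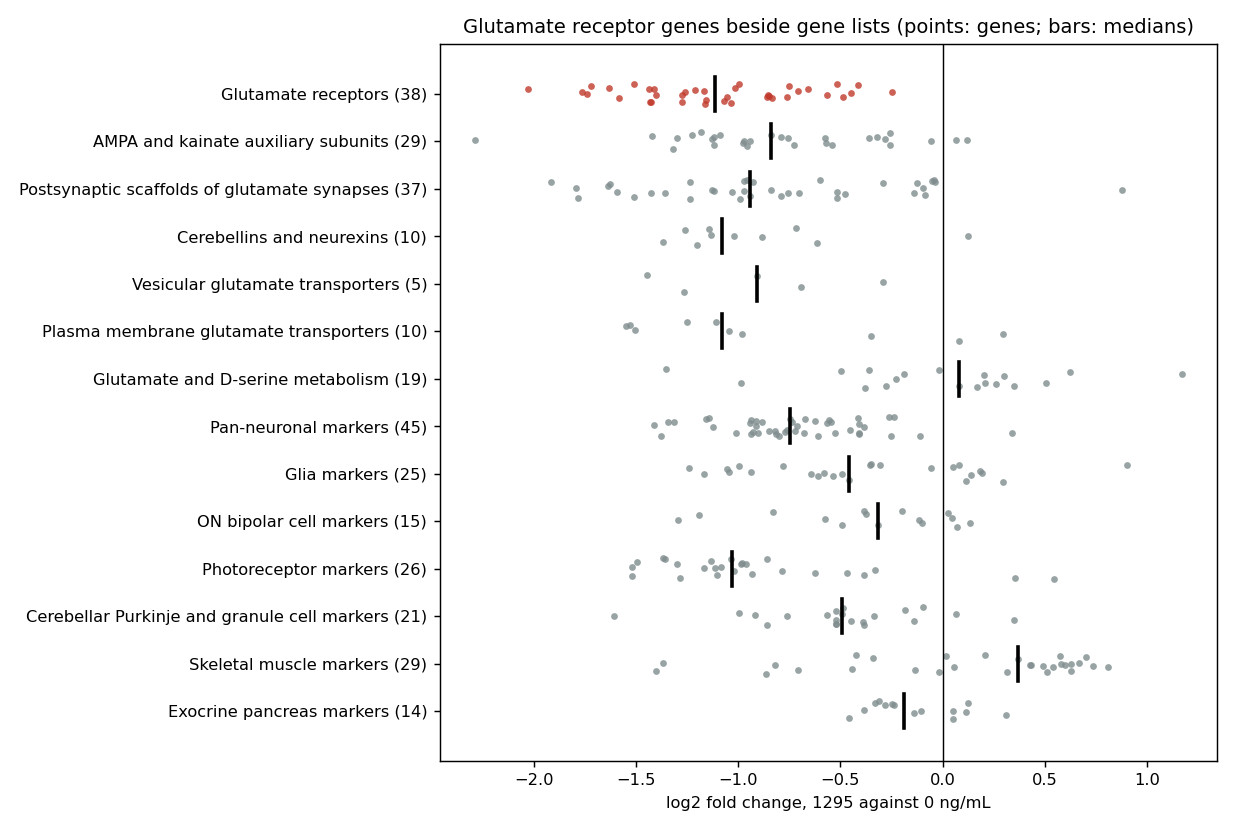
Log2 fold changes at 1295 against 0 ng/mL (x axis) of the 38 glutamate receptor genes and of 13 gene lists (rows, number of tested genes in brackets), with each gene a point and the median a bar. The receptor median of -1.11 lies to the left of the pan-neuronal median of -0.75. It lies near the medians of cerebellins and neurexins and of plasma membrane glutamate transporters (-1.08 each), and of photoreceptor markers (-1.03). Muscle genes lie on both sides of 0.

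Muscle genes went in both directions at 1295 ng/mL: 16 of 29 rose and 8 fell (median 0.37), and their summed level was 91878 to 103646 CPM in controls and 125955 to 148164 CPM at 1295 ng/mL. The 3 genes with the smallest p were ttn.1 (-1.403, adjusted p = 1.52e-05, SE 0.15), ttn.2 (-1.37, adjusted p = 8.16e-06, SE 0.13) and neb (-0.82, adjusted p = 7.16e-05, SE 0.11). All 3 were among the 8 that fell. The 16 that rose are not named here, so these 3 genes do not stand for the list. At 250 ng/mL 3 of the 29 rose and 1 fell, with a median of -0.04, and at 750 ng/mL 1 rose and 1 fell. The part of muscle RNA in the receptor values was not tested. Of 30 listed exocrine pancreas names 14 were in the table. These genes rose in 14 of 14 cases at 250 ng/mL and in 13 of 14 at 750 ng/mL. Their sums lay above all controls at both doses, at 402% and 347% of the control mean. At 1295 ng/mL 0 of 14 were called (0 at an unadjusted p under 0.05). Their summed level was 1631 to 3035 CPM in controls and 1627 to 3135 CPM at 1295 ng/mL. Of all tested genes 6.03% were called higher and 4.48% lower at 250 ng/mL. At 750 ng/mL these shares were 4.2% and 2.14%, and at 1295 ng/mL 18.8% and 22.2%.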

How the data were processed

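Messenger RNA was sequenced from 12 samples of 15 whole larvae. Per the labels' protocols, RNA with an integrity number of at least 7 went into a stranded library kit. Trimmomatic, HISAT2, HTSeq and build GRCz11 are named by the submitters' processing notes. The sources used here give no versions, annotation or strand setting. The authors deposited raw counts for each gene, with no normalization. All 12 single-sample files matched the table. No genome or sequence table was used.

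Tests used edgeR 4.0.16 in R 4.3.3: filterByExpr (21581 of 25099 genes kept), TMM factors, 1 quasi-likelihood fit over all 12 libraries with dose group as factor (8 residual degrees of freedom), a prior count of 0.125 and Benjamini-Hochberg adjustment over all tested genes. The standard error is the log2 fold change over the square root of F. Chi-square divided by its degrees of freedom was 3.69 to 16.08 for pairs within a group, so that no library was a repeat of another. Alternatives included DESeq2 1.42.0 and limma-voom (limma 3.58.1).

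The receptor genes and gene lists were chosen with earlier results of these data known. Receptor genes called in any comparison are named, except some that enter the counts and sums but are not reported singly here. Values per library are given for up to 5 per direction and comparison, those with the largest called changes, at least 1 CPM and no overlap, and for the gene with most counts in each family. Of each list up to 3 genes with the smallest p at 1295 ng/mL could be named. Others are marked.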

Additional observations from a re-analysis of the deposited data

How the results depend on the processing

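Alternatives were 3 other scalings, 2 other filters, a replicate block, DESeq2, limma-voom, a fit to the compared groups alone, and each of 12 libraries left out in turn. No called receptor gene changed direction under any of these 21. At 1295 against 0 ng/mL 26 of 35 calls held under all of them, and at 1295 against 750 ng/mL 27 of 32, while at 250 and 750 ng/mL 0 of 3 and 0 of 2 did. In the first pair of comparisons, called receptor genes were 29 to 36 and 28 to 33 with 1 library left out. Under the other alternatives they were 33 to 37 and 31 to 34. These include the fit to the compared groups alone, which does not use the libraries of the remaining groups. Leaving out 1 library gave 0 to 4 calls at 250 ng/mL, 0 to 2 at 750 ng/mL and 0 to 0 for 750 against 250 ng/mL. Scaled by total counts alone, 1 gene was called at 250 ng/mL and 0 at 750 ng/mL, and the medians were -1.37 at 1295 against 0 ng/mL and -1.21 at 1295 against 750 ng/mL, where the median of all genes also moved, to -0.27 and -0.29. With only the 2 compared groups in the fit, 0 genes were called at 750 ng/mL. The cause of the latter was not tested. Medians with 1 library left out ran from 0.06 to 0.21 at 250 ng/mL, -0.01 to 0.11 at 750 ng/mL, -1.21 to -1.04 at 1295 ng/mL, -0.07 to 0.05 for 750 against 250 ng/mL and -1.12 to -0.86 for 1295 against 750 ng/mL.

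The labels do not say whether a replicate number marks a shared clutch or batch. Same-numbered libraries of different groups had correlated deviations over 0.1 in 4 of 18 pairs (from -0.26 to 0.16). Among pairs with different numbers it was 6 of 36 (from -0.18 to 0.28), and 4 of 12 libraries correlated best with their own number. Deviations from means of 3 libraries cannot settle whether same-numbered libraries had a shared origin. With the replicate block, 3, 2, 35, 0 and 32 receptor genes were called in the 5 comparisons, the same numbers as without it. Calls at 1295 against 0 ng/mL lost in at least 1 alternative included those of grik1a, grik1b, grik5, grin3a, grin3ba, grm6a, grm6b and grm8b, and grid1a and grm5b were gained in at least 1. With all libraries kept, DESeq2 did not call grik1a, grm6a or grm6b (adjusted p = 0.0735, 0.0546 and 0.0714). By limma-voom grik1a and grm6b were not called either (adjusted p = 0.0576 and 0.0549). Among the genes named, depth limits grin3bb, grin3ba, grm6a and grm5b most, with means under 3 CPM over the 12 libraries.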
